A study of Mus musculus with 2 samples.

Results

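The 10 genes described here encode the core of the TGF-beta signalling chain: the receptor chains Tgfbr1, Tgfbr2 and Tgfbr3, the Smad proteins Smad2, Smad3, Smad4 and Smad7, and the nuclear co-repressors Ski, Skil and Tgif1. They were taken by symbol for their place in this pathway, and all 10 were found among the 22609 genes listed. Expression was measured in CD8+ regulatory T cells, T cells of the CD8 lineage that restrain other immune cells, sorted from spleens of unimmunised mice aged 3 months. One library came from mice labelled Tgfbr2-/-Eomes-/-, called DKO here, which carry deletions of the type II TGF-beta receptor and of the T-box transcription factor Eomes. The other library came from WT mice. The labels do not state how, or in which cells, the genes were deleted, how many mice gave each library, or which surface markers were sorted. The deposited tables' own names carry a tag that may stand for CD122+ cells, which the labels do not explain. As each genotype has a single library, no replicate spread could be measured and no p-value is given. Each interval below is an exact 95% interval for counting error only, so it compares the libraries and not the genotypes.

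TGF-beta binds the receptor chain Tgfbr2, which recruits and phosphorylates the chain Tgfbr1, and Tgfbr3 (betaglycan) is a co-receptor that presents ligand to them. Tgfbr1 then phosphorylates Smad2 and Smad3, which join the common partner Smad4 and act on genes in the nucleus. Smad7 blocks the receptor, and Ski and Skil (also called SnoN) hold Smad complexes in a repressed state. Tgif1 is another co-repressor of Smads. Smad7 and Skil are themselves induced by TGF-beta in many cell types and so act as negative feedback. In T cells this pathway is known for restraining effector differentiation.

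The upstream sequences of Ski, Tgfbr2 and Smad3, which were lower in the DKO library, and of Tgif1, which was 1.25-fold higher there, are shown because Smads act through short DNA motifs in such regions. Each line gives the 250 bases before the annotated start from RefSeq on GRCm38.p6, 5′ to 3′ on the gene's own strand. Ski is at chr4:155222536-155222785 (minus strand), Tgfbr2 at chr9:116175364-116175613 (minus), Smad3 at chr9:63757995-63758244 (minus) and Tgif1 at chr17:70853533-70853782 (minus, the farthest upstream of 5 annotated starts). Capitals mark the Smad box GTCT or its complement AGAC, and the GC-rich motif GGCGC or its complement GCGCC, which can overlap one another.
Ski: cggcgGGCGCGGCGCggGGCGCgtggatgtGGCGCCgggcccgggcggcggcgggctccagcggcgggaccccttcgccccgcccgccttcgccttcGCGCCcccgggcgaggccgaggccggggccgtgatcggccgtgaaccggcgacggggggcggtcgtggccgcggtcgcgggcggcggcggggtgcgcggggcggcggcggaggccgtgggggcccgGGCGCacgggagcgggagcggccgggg
Tgfbr2: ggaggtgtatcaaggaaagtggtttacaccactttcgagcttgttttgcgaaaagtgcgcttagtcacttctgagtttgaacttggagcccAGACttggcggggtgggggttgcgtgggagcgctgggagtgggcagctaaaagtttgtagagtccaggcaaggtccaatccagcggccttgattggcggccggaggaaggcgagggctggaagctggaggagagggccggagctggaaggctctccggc
Smad3: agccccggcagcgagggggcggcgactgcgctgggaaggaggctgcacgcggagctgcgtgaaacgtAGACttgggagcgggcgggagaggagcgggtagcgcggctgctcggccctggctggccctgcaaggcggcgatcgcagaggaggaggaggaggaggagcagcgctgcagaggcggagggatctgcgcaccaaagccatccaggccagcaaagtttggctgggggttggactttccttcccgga
Tgif1: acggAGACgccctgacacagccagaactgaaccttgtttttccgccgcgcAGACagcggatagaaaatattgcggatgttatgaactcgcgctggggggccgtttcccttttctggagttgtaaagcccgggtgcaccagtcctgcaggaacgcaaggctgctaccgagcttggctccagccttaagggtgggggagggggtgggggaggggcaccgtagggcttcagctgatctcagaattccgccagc
The Ski window had 87.6% G and C, no Smad box and 7 matches to the GC-rich motif on both strands. Tgfbr2 and Smad3 each had 1 Smad box and Tgif1 had 2, and none of these 3 windows held the GC-rich motif. Of 32851 RefSeq windows of the same length, 82.9% held at least 1 Smad box and 32.0% the GC-rich motif. The core TGTCA or TGACA bound by Tgif1 stood in 40.0% of all windows and in the Tgif1 window shown, but not in the windows of Ski, Tgfbr2 and Smad3. These matches describe letters only and do not show binding. Windows of 5 of the 10 genes were used. The other 4 Tgif1 windows held 4, 0, 3 and 3 Smad boxes, and 1 of them the GC-rich motif. Tgfbr1 was nearly equal in the libraries at the main scaling given below. Of its windows, 1 held 3 GC-rich matches and no Smad box and the other held 2 Smad boxes.

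Gene counts summed to 19661212 in the DKO library and 22307065 in the WT library, and were put on a common scale as CPM (counts-per-million) with TMM library factors. The CD8 chain genes were present at like levels, with Cd8a at 978 CPM in DKO and 998 CPM in WT. Cd8b1 had 1220 CPM in DKO and 1201 CPM in WT. Lck, the highest of the 10 CD8+ T cell markers in both libraries, had 1299 CPM in DKO and 1721 CPM in WT, 1.33-fold lower. Il2rb, the CD122 chain that commonly marks CD8+ regulatory T cells, had 2213 CPM in DKO and 2675 CPM in WT. The 10 CD8+ T cell markers summed to 7157 CPM in DKO and 8001 CPM in WT. Of them 0 were called, and their median log2 ratio of DKO over WT was -0.14. The 10 markers of CD8+ regulatory T cells summed to 3378 CPM in DKO and 3910 CPM in WT, with 1 called lower (Cxcr5). Il2rb alone made up most of that sum in both libraries, and the median log2 ratio of these 10 markers was 0.19. Abundant genes on the marker lists for other cells included Cd74, listed for dendritic cells, at 1727 CPM in DKO and 666 CPM in WT. S100a9, listed for neutrophils, had 1066 CPM in DKO and 261 CPM in WT. Csf1r, listed for myeloid cells, had 329 CPM in DKO and 174 CPM in WT. Markers of most other cell types summed higher in the DKO library: neutrophil markers 2632 against 595 CPM in WT, dendritic cell markers 3200 against 1149 CPM, myeloid markers 1712 against 884 CPM, NK markers 2250 against 1439 CPM, CD4+ and FOXP3+ T cell markers 405 against 208 CPM, and plasma cell markers 566 against 315 CPM. The number of genes at least 2-fold higher was 6 of 9 for neutrophil, 7 of 10 for dendritic, 4 of 10 for myeloid, 5 of 10 for NK, 7 of 10 for CD4+ and FOXP3+ T cell and 3 of 8 for plasma cell markers, against 11.6% of all genes compared. Lower by the same limit were 1 NK marker, the targeted Eomes, 1 plasma cell marker (Tnfrsf17) and 2 B cell markers (Cr2 and Cd22). Cd74 and H2-Aa (1278 CPM in DKO, 398 CPM in WT) made up most of the dendritic cell sum in both libraries. Gzma was the highest NK marker in DKO, at 785 CPM against 160 CPM in WT. Listed genes need not be limited to their cell type, and which cells gave their reads was not tested. B cell markers summed to 96.2 CPM in DKO and 138 CPM in WT, with Ebf1 listed at 0 in DKO. Erythroid and platelet markers summed to 37.2 CPM in DKO and 17.2 CPM in WT, with 4 of 6 measured genes at least 2-fold higher. Hba-a1 and Hbb-b1 were listed at 0 in both libraries. Non-unique alignments were kept in a row of their own, so a 0 need not mean that RNA was absent. The part of these other cells in any value below was not tested, and in a sorted bulk sample fewer cells of a type and less RNA per cell cannot be told apart.

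In the DKO library the inhibitory and co-repressor genes Skil, Ski and Smad7 were lower, as were Tgfbr2, Smad3 and Smad2 by smaller folds. The co-repressor gene Tgif1 was 1.25-fold higher. The co-receptor gene Tgfbr3 was higher at a low level, and Tgfbr1 and Smad4 were nearly equal to WT. All 10 genes reached at least 1 CPM in at least 1 library, the minimum for a gene to be compared, and ranged from 9.40 to 244 CPM in DKO and from 3.60 to 357 CPM in WT. Genes past a 2-fold limit, with a counting interval that did not include 1, were called. Of the 10 genes, 1 was called higher (Tgfbr3), 1 lower (Skil) and 8 neither. Among all 11735 genes compared, 11.6% were called higher and 3.6% lower, so at this limit the counts lay near the background. At a limit of 1.5-fold, 3 of the 10 genes were lower (Skil, Ski and Smad7) and 1 higher (Tgfbr3), against 8.42% lower and 17.7% higher among all genes. With scaling by T cell genes Ski was 1.49-fold and Smad7 1.45-fold lower, so both calls at 1.5-fold were lost and that of Skil was kept. The median log2 ratio was -0.31 over the 10 genes and 0.0012 over all genes compared, and 7 of the 10 ratios lay below 0. The plot of CPM by gene gives both libraries.

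**Figure D1:**
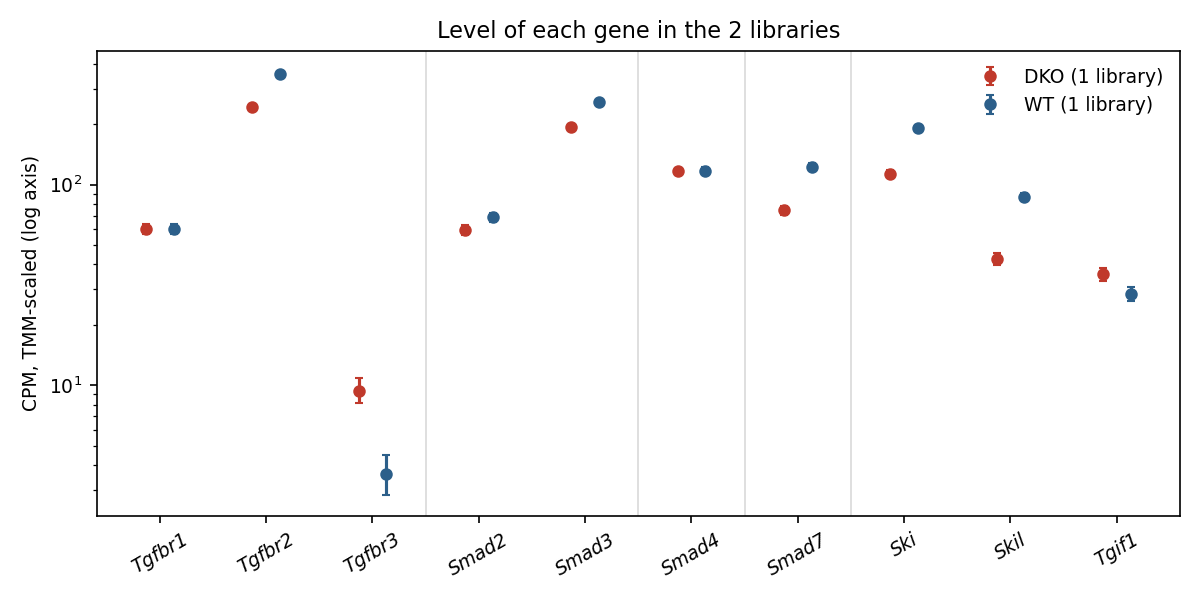
CPM of each gene (log axis) in the DKO library (left point of each pair) and the WT library (right point), 1 library each, with exact 95% Poisson intervals for counting error. Tgfbr2 has the highest CPM in both libraries (244 in DKO, 357 in WT) and Tgfbr3 the lowest (9.40 in DKO, 3.60 in WT).

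Among the receptors, the targeted gene was still counted in the library labelled as lacking it. Tgfbr2, the ligand-binding chain, had 4882 counts or 244 CPM in DKO, against 7825 counts or 357 CPM in WT. It was 1.46-fold lower in DKO (interval 1.41 to 1.51), on the side its label gives but short of the 2-fold limit. A count per gene does not show which exons the reads covered, so it is no direct check of a deletion within the gene, and the source of the remaining Tgfbr2 reads was not tested. Eomes, the other targeted gene, had 180 CPM in DKO and 469 CPM in WT and was 2.61-fold lower (2.52 to 2.72).

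Tgfbr1, the kinase that passes the signal to Smads, had 1205 counts or 60.3 CPM in DKO and 1316 counts or 60.0 CPM in WT. Its log2 ratio was 0.0066 (interval -0.11 to 0.12), so the libraries did not differ beyond counting error at the TMM scaling. With scaling by T cell genes it was 0.19, above that interval. The receptor pair differed in balance, with 4.05 Tgfbr2 counts per Tgfbr1 count in DKO and 5.95 in WT. That ratio was 1.47-fold lower in DKO (1.35 to 1.60). Such a ratio of counts within a library does not depend on how libraries are scaled.

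Tgfbr3, the co-receptor betaglycan, was scarce in both libraries, with 188 counts or 9.40 CPM in DKO and 79 counts or 3.60 CPM in WT. It was 2.61-fold higher in DKO (2.00 to 3.44). Among the 2398 genes whose higher CPM lay from 5 to 20, 11.4% had a higher ratio than Tgfbr3 and 18.7% were called higher. Tgfbr3 is expressed outside CD8+ T cells as well. The summed markers of neutrophils, dendritic cells, myeloid cells and NK cells given above were higher in the same library. Their part in the Tgfbr3 ratio was not tested. Of the 6494 windows of 50 bases in annotated Tgfbr3 transcripts, 3.85% also occurred in transcripts of 1 other gene model, which overlaps Tgfbr3 on the same strand. How such reads were counted was not tested.

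The signal-carrying Smads stayed within 2-fold. Smad3 had 3880 counts or 194 CPM in DKO and 5666 counts or 258 CPM in WT, and was 1.33-fold lower in DKO (1.28 to 1.39). Smad2 had 1193 counts or 59.7 CPM in DKO and 1507 counts or 68.7 CPM in WT, and was 1.15-fold lower (1.07 to 1.24). Its log2 ratio of -0.20 became -0.019 with scaling by T cell genes, so this difference depends on the scaling. Smad4, the partner shared with the BMP branch, had 2335 counts or 117 CPM in DKO and 2576 counts or 117 CPM in WT. Its log2 ratio was -0.0079 (-0.089 to 0.073), and it was 0.040 with total-count scaling and 0.18 with scaling by T cell genes, so no direction is given. None of the 3 passed the 2-fold limit. Per kilobase of exon, Smad3 made up 83.7% of the summed Smad2 and Smad3 level in DKO and 85.6% in WT, and the Smad3 to Smad2 count ratio was 1.16-fold lower in DKO (1.06 to 1.26).

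Smad7, the inhibitory Smad that blocks the receptor, had 1488 counts or 74.4 CPM in DKO and 2695 counts or 123 CPM in WT. It was 1.65-fold lower in DKO (1.55 to 1.76), short of the 2-fold limit. Among the 2627 genes that reached 100 CPM or more in either library, 1.64% had a lower ratio. Set against Smad4, whose counts differed by less than counting error at the TMM scaling, Smad7 had 0.637 counts per Smad4 count in DKO and 1.05 in WT, 1.64-fold lower in DKO (1.51 to 1.79).

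The co-repressors lay on both sides. Skil, a feedback repressor, had 848 counts or 42.4 CPM in DKO and 1900 counts or 86.6 CPM in WT, and was 2.04-fold lower in DKO (1.88 to 2.22). Its interval reached below 2-fold, and the call was lost at 1.97-fold with total-count scaling and at 1.80-fold with scaling by T cell genes. Among the 4928 genes whose higher CPM lay from 20 to 100, 0.588% had a lower ratio than Skil and 0.690% were called lower.

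Ski, the founding member of the family, had 2267 counts or 113 CPM in DKO and 4208 counts or 192 CPM in WT, and was 1.69-fold lower (1.61 to 1.78). Of the genes at 100 CPM or more, 1.45% had a lower ratio. Skil and Ski were thus both lower, and the Skil to Ski count ratio was 1.21-fold lower in DKO (1.10 to 1.33). Tgif1 had 714 counts or 35.7 CPM in DKO and 627 counts or 28.6 CPM in WT, 1.25-fold higher in DKO (1.12 to 1.39) and not past the limit. Skil had 1.19 counts per Tgif1 count in DKO and 3.03 in WT, which was 2.55-fold lower (2.23 to 2.93). Ski per Tgif1 count was 3.18 in DKO and 6.71 in WT, 2.11-fold lower (1.87 to 2.38). These contrasts hold at any library scaling, as the plot of gene pairs shows.

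**Figure D2:**
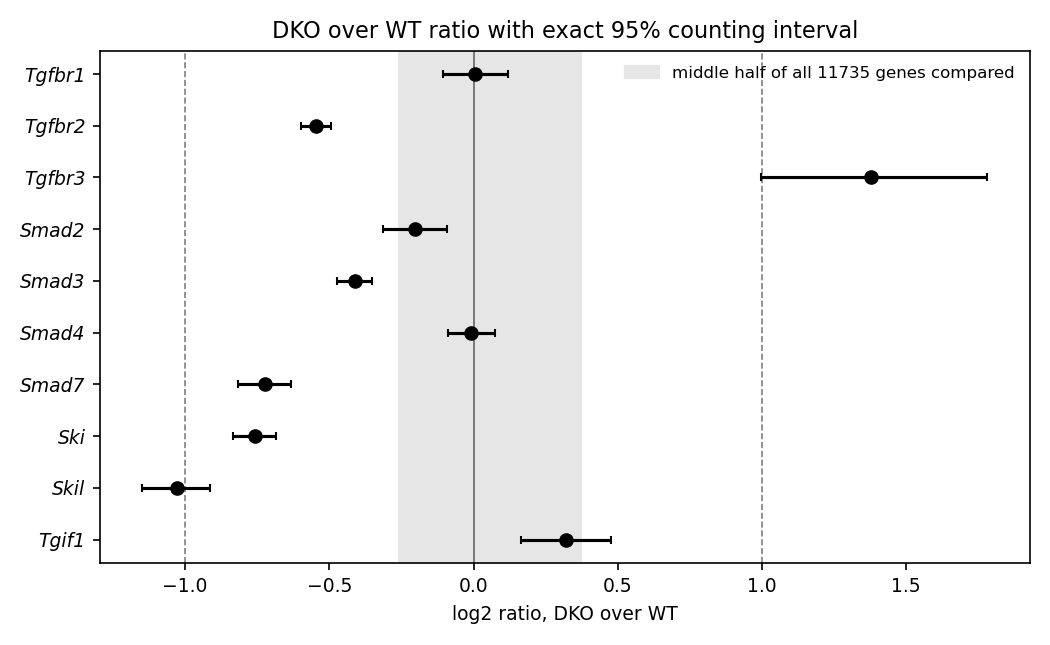
Log2 ratio of DKO over WT for each gene with its exact 95% interval; the grey band is the interquartile range of all 11735 genes compared and dashed lines mark 2-fold. Skil lies at -1.03 and Tgfbr3 at 1.38, while Tgfbr1 (0.0066) and Smad4 (-0.0079) lie close to 0.

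**Figure D3:**
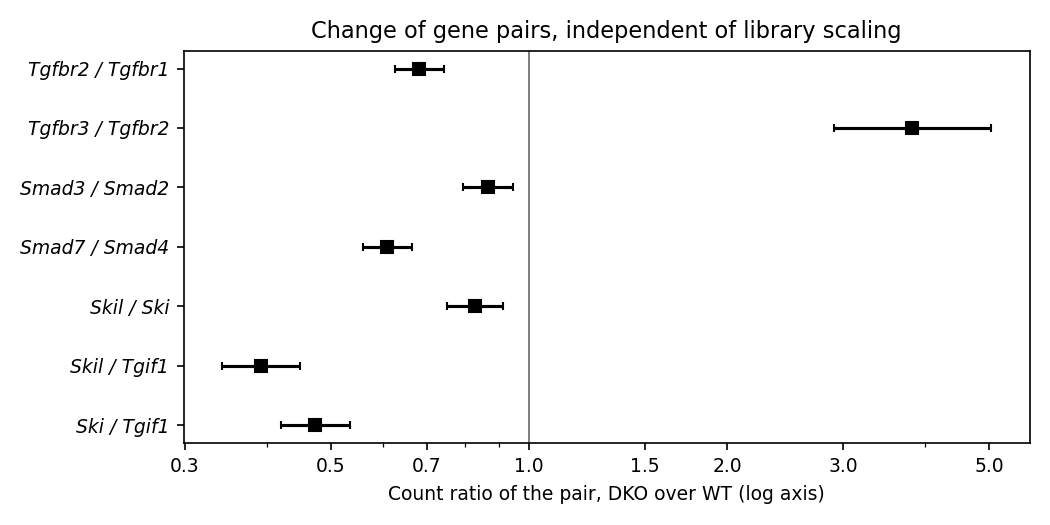
Ratio of the counts of a gene pair in DKO divided by the same ratio in WT (log axis) with the exact conditional 95% interval. The pairs with Tgif1 below (Skil 0.392, Ski 0.473) lie farthest left of 1, and Tgfbr3 over Tgfbr2 (3.81) lies right of it.

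The share of genes with such ratios depended on abundance, so the 10 genes are shown against all others by level. The median log2 ratio was 0.45 from 1 to 5 CPM, 0.18 from 5 to 20 CPM, -0.02 from 20 to 100 CPM and -0.09 at 100 CPM or more. Of the genes at 100 CPM or more, 4.49% had a lower ratio than Tgfbr2 and 11.0% a lower ratio than Smad3. Of the genes from 20 to 100 CPM, 29.6% had a lower ratio than Smad2 and 19.5% a higher ratio than Tgif1.

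**Figure D4:**
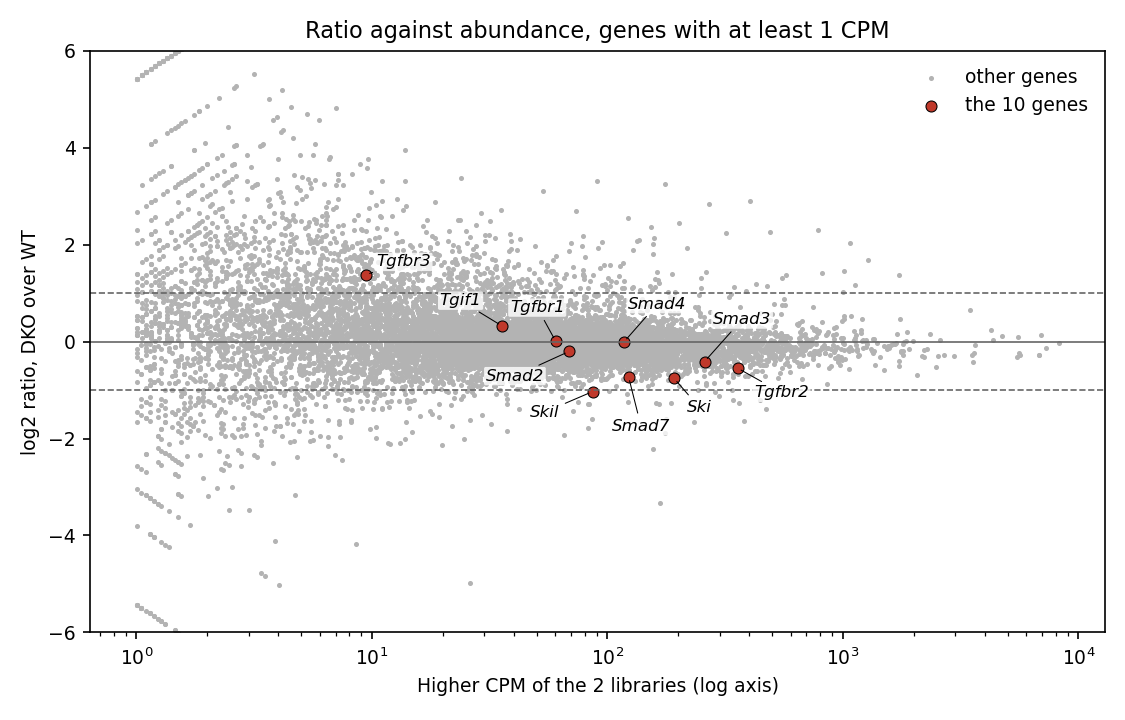
Log2 ratio of DKO over WT against the higher CPM of the libraries (log axis) for genes with at least 1 CPM, with the 10 genes in red; 73 other genes lie beyond the axis limits of 6. Skil, Smad7 and Ski lie at the lower edge of genes of their abundance, and Tgfbr3 lies in the wide spread of scarce genes.

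Levels of different genes can be compared only per length, here as CPM divided by the kilobases of annotated exon (RPKM). In the DKO library Smad3 was highest at 35.0 RPKM, followed by Smad4 at 31.5, Tgfbr2 at 29.8, Ski at 20.4, Smad7 at 16.5, Tgfbr1 at 9.22, Smad2 at 6.80, Tgif1 at 6.35, Skil at 4.38 and Tgfbr3 at 1.44 RPKM. In the WT library the order was Smad3 at 46.6, Tgfbr2 at 43.6, Ski at 34.5, Smad4 at 31.6, Smad7 at 27.2, Tgfbr1 at 9.18, Skil at 8.93, Smad2 at 7.82, Tgif1 at 5.08 and Tgfbr3 at 0.550 RPKM. Neighbours whose counting intervals overlapped were Smad4 with Tgfbr2 and Smad2 with Tgif1 in DKO, and Tgfbr1 with Skil in WT. By rank, Smad4 was 2 in DKO and 4 in WT, and Skil was 9 in DKO and 7 in WT. Among the 10592 genes compared that had an exon length, Smad3 exceeded 86.1% in DKO and 89.7% in WT, while Tgfbr3 exceeded 18.2% in DKO and 11.4% in WT. Of the summed RPKM of the 3 receptor genes, Tgfbr2 held 73.7% in DKO and 81.7% in WT, and Tgfbr1 22.8% in DKO and 17.2% in WT. Of the summed RPKM of the 3 co-repressors, Tgif1 held 20.4% in DKO and 10.5% in WT, and Skil 14.1% in DKO and 18.4% in WT. With the length of the longest transcript in place of all exons, Tgif1 had 11.4 RPKM in DKO and 9.09 RPKM in WT and held 29.7% of that sum in DKO and 16% in WT. Exon lengths come from GENCODE M21 on GRCm38, which is not the build of the counts, and apply to all isoforms of a gene together.

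Genes with levels most like those of Skil over the 2 libraries, by Euclidean distance in log2 CPM, were Plcxd2 (43.1 CPM in DKO, 79.1 in WT), Brwd1 (40.2 in DKO, 77.3 in WT) and Zfp335 (48.3 in DKO, 83.4 in WT). Those nearest to Smad7 were Pja1 (75.0 CPM in DKO, 132 in WT), Il6ra (76.8 in DKO, 115 in WT) and Neu1 (77.3 in DKO, 115 in WT). Those nearest to Tgfbr3 were Myof, which had the same counts, Kif18b (9.55 CPM in DKO, 3.56 in WT) and St6galnac6 (9.65 in DKO, 3.56 in WT). With 1 library per genotype a pattern is a single ratio, so likeness describes levels only.

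In the wider pathway, 141 further genes in 9 groups were listed and 109 reached 1 CPM. Of these, 13 (11.9%) were called higher in DKO, 5 (4.59%) lower and 91 neither, near the shares among all genes given above, with a median log2 ratio of -0.09.

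None of the other Smads was called. Of the BMP-branch Smads, Smad1 had 24.1 CPM in DKO and 32.2 CPM in WT, 1.34-fold lower, and Smad5 had 40.6 CPM in DKO and 45.3 CPM in WT, 1.12-fold lower. Smad9 was listed at 0 in both libraries, and Smad6, the inhibitory Smad of the BMP branch, had 6 counts in DKO and 0 in WT.

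The other receptors and co-receptors had 2 higher, 3 lower and 5 neither among 10 measured genes, against 11.6% higher and 3.6% lower among all genes, with a median log2 ratio of -0.62. Acvr1 and Bambi lay under 5 CPM in both libraries, where 35.0% of genes were called higher and 15.5% lower. Acvr2a, an activin receptor, had 4.60 CPM in DKO and 10.4 CPM in WT and was 2.26-fold lower (log2 interval -1.54 to -0.82). Bmpr2, the BMP type II receptor, had 1.55 CPM in DKO and 6.02 CPM in WT, 3.88-fold lower from 31 and 132 counts. Bmpr1a, a BMP type I receptor, was 1.81-fold lower and not past the limit. Bambi, a decoy receptor of the family, had 15 counts in DKO and 74 in WT. Nrp1, a co-receptor of FOXP3+ T cells and other cells, had 38.9 CPM in DKO and 9.25 CPM in WT, 4.20-fold higher, and Acvr1, another type I receptor, had 40 counts in DKO and 3 in WT, a ratio of 14.6 with a counting interval of 4.66 to 73.9. Nrp1 is itself on the list of CD4+ and FOXP3+ T cell markers, and is among the 7 of those 10 that were called higher. The part of such cells in its ratio was not tested.

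Ligands and activators had 4 higher, 1 lower and 6 neither among 11 measured genes of 25 listed. The 5 called genes all lay under 5 CPM in both libraries, and among all genes from 1 to 5 CPM 35.0% were called higher and 15.5% lower. Of the 5, Ltbp2, Ltbp4, Lrrc32 and Bmp1 reached 1 CPM only in the library where they were higher. Tgfb1, the main TGF-beta ligand of lymphocytes, had 169 CPM in DKO and 187 CPM in WT, 1.11-fold lower. Lrrc32, which docks latent TGF-beta on FOXP3+ T cells, had 93 counts in DKO and 9 in WT. Ltbp4, which tethers latent TGF-beta to matrix, had 46 counts in DKO and 0 in WT, at least 13.1-fold higher by the lower limit of its exact interval (16.8-fold against a floor of 3 counts in the WT library). Ltbp2 had 26 counts in DKO and 0 in WT, at least 7.20-fold higher by the same limit (9.51-fold against the floor). Thbs1, an activator of latent TGF-beta, had 90 counts in DKO and 30 in WT. Bmp1 had 4 counts in DKO and 32 in WT. Furin, the protease that cuts the TGF-beta precursor, was 1.27-fold higher, Gdf11 1.43-fold lower, Itgav 1.49-fold higher and Lrrc33, which docks latent TGF-beta on myeloid cells, had 158 CPM in DKO and 219 CPM in WT. The median log2 ratio of the group was 0.35, also with the genes at 0 in WT set at their fold against the floor.

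Enzymes that modify Smads and the receptor had 0 of 20 past 2-fold in either direction, and 14 of the 20 log2 ratios lay below 0. Among all genes 11.6% were called higher and 3.6% lower. From 20 to 100 CPM these shares were 4.71% and 0.690%, and at 100 CPM or more 2.17% and 0.761%. The 0 called of 20 thus lay near the background. Smurf2, the ubiquitin ligase that Smad7 brings to the receptor, had 56.8 CPM in DKO and 95.1 CPM in WT and was 1.68-fold lower, a ratio close to that of Smad7. Arrb2, an adaptor that internalises receptors, had 195 CPM in DKO and 294 CPM in WT, 1.51-fold lower. Smurf1, a close relative of Smurf2, had 61.5 CPM in DKO and 59.7 CPM in WT. Rnf12 (listed as Rlim), a ligase of Smad7, was 1.38-fold higher and Skp2 1.41-fold lower. The median log2 ratio of this group was -0.19.

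Partners of Ski and Tgif1 had 0 of 11 past 2-fold, with a median of -0.07, against 11.6% higher and 3.6% lower among all genes. Ncor1, the co-repressor that Ski and Skil recruit, had 309 CPM in DKO and 414 CPM in WT, 1.34-fold lower. Hdac2 was 1.17-fold lower, and Sin3a had 120 CPM in DKO and 118 CPM in WT. Tgif2, the paralog of Tgif1, had 9.95 CPM in DKO and 6.93 CPM in WT, 1.44-fold higher.

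Smad anchors and transport factors had 0 of 14 past 2-fold with a median of -0.15, against 11.6% higher and 3.6% lower among all genes. Non-Smad kinases had 0 of 11, with a median of -0.09. In these groups Kpnb1, an importin, was 1.33-fold lower and Eid2 1.47-fold lower, while the Smad anchors Zfyve9 and Zfyve16 were 1.45-fold and 1.39-fold higher. Map3k7, the kinase TAK1, and its partner Tab1 were each 1.22-fold higher, Rock1 was 1.32-fold lower, and Traf4, an adaptor of the activated receptor, had 38.8 CPM in DKO and 73.0 CPM in WT, 1.88-fold lower. Smad cofactors had 2 higher, 0 lower and 12 neither of 14, with a median of -0.13, against the same shares among all genes. Zeb2, a Smad-binding repressor of effector and myeloid cells, had 54.6 CPM in DKO and 19.7 CPM in WT, 2.76-fold higher. Atf3, a stress-induced factor, had 13.4 CPM in DKO and 5.56 CPM in WT, 2.41-fold higher. Among the Runx factors, which bind Smads, Runx1 had 63.8 CPM in DKO and 36.5 CPM in WT, 1.75-fold higher. Runx2 was 1.71-fold lower, and Runx3 had 187 CPM in DKO and 304 CPM in WT, 1.63-fold lower.

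Genes known to respond to TGF-beta had 5 higher, 1 lower and 10 neither of 16, against 11.6% higher and 3.6% lower among all genes. Their median was 0.39, and 5 of 16 log2 ratios lay below 0. The list was not divided into genes that TGF-beta raises and genes that it lowers. Its counts and median therefore give no direction of the response. Bhlhe40 had 58.6 CPM in DKO and 18.1 CPM in WT, 3.23-fold higher. Klf11, a TGF-beta inducible repressor, had 22.8 CPM in DKO and 7.25 CPM in WT, 3.14-fold higher. Id2, an inhibitor of E proteins that is high in effector T cells, had 249 CPM in DKO and 99.7 CPM in WT, 2.49-fold higher. Cdkn1a had 9.25 CPM in DKO and 3.42 CPM in WT, 2.71-fold higher, and Tgfbi had 118 CPM in DKO and 54.7 CPM in WT, 2.15-fold higher. On the other side Id1 had 27 counts in DKO and 64 in WT, 2.16-fold lower. It lay under 5 CPM in both libraries, and among all genes from 1 to 5 CPM 15.5% were called lower. Pmepa1, another feedback inhibitor induced by TGF-beta, had 3.65 CPM in DKO and 6.70 CPM in WT, 1.84-fold lower, and Id3 had 89.4 CPM in DKO and 144 CPM in WT, 1.61-fold lower. Myeloid cells express Tgfbi too, and the part of the myeloid markers given above in its ratio was not tested. The plot by group shows all genes compared.

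**Figure D5:**
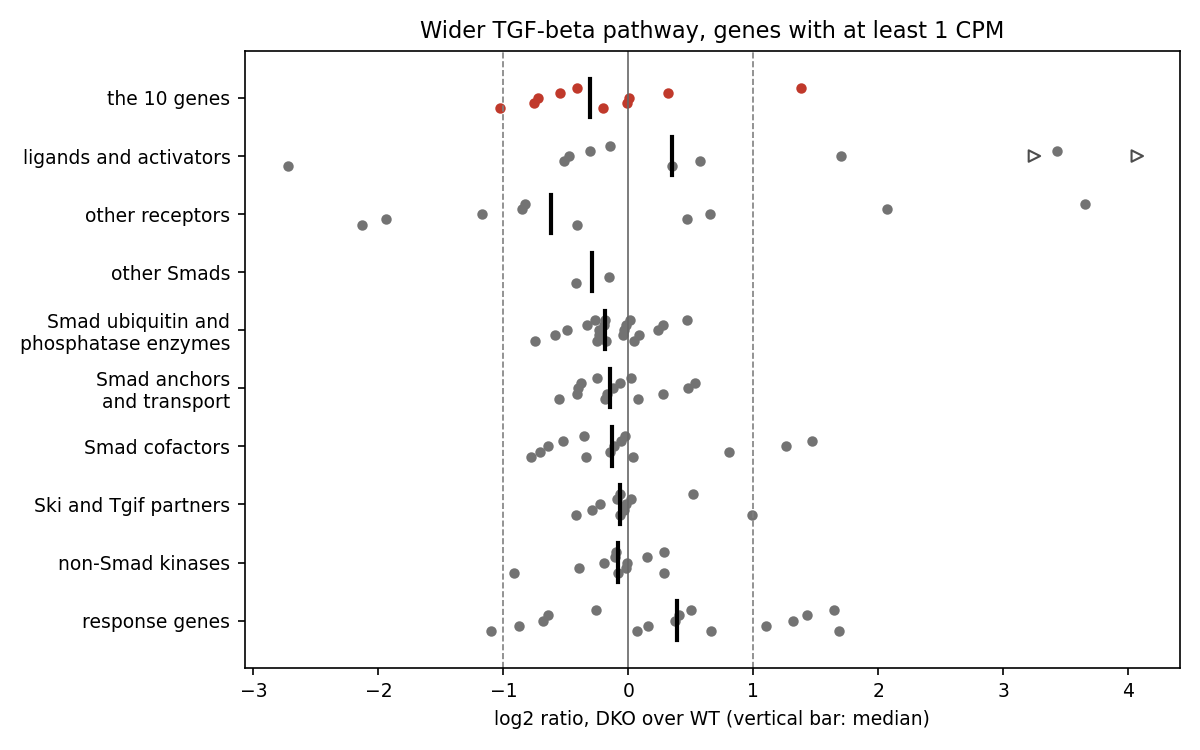
Log2 ratio of DKO over WT of each gene with at least 1 CPM, by pathway group; vertical bars are group medians, dashed lines mark 2-fold and open triangles are Ltbp2 and Ltbp4, which had 0 counts in WT, at their fold against a floor of 3 counts. The Smad enzyme, anchor, Ski and Tgif partner and non-Smad kinase groups lie within 2-fold, while ligands, other receptors and response genes spread to both sides. Of all genes from 20 to 100 CPM, 4.71% were called higher and 0.690% lower.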

How the data were processed

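RNA of 2 libraries of sorted spleen CD8+ regulatory T cells, 1 DKO and 1 WT, was sequenced as single 50-base reads from total RNA libraries, per the labels' protocols. The authors deposited unnormalised whole-number read counts per gene. Tools named in the submitters' processing notes are TopHat2 2.0.8b, bcl2fastq and HTSeq, with build mm9, without saying which did what. The sources used here name no annotation, strand setting or filter. The 5 rows that name no gene were left out; the non-unique alignment row held 64.8% of the DKO total and 66.4% of the WT total. No exon of the 10 genes overlapped another gene's exon on the opposite strand in GENCODE M21.

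Counts were scaled by TMM factors (1.02 for DKO, 0.983 for WT; edgeR 4.0.16 in R 4.3.3). A prior count of 0.5 entered each log2 ratio. Intervals were exact Clopper-Pearson 95% intervals of the DKO share of the counts (scipy 1.17.1), or exact conditional intervals for gene pairs. Intervals and the floor of 3 counts cover the counting error of reads only, since each genotype had 1 library. PCR copies cannot be told from molecules, so the counting error of molecules may be wider. No quasi-likelihood test could be fitted with 1 library per genotype. Scripts were checked on simulated data. Exon lengths were found for 90.3% of genes compared. A planned comparison of protein sequences was not made.

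The 10 genes, the lists and the limits were chosen with earlier results of these data known. Named genes were the 10 genes, Eomes, in each wider list the 4 genes at 5 CPM or more whose log2 ratio was farthest from 0 and any past 2-fold, the 3 nearest in level to Skil, Smad7 and Tgfbr3, and marker genes listed at 0 or among the 3 highest of their list, of which a few are printed; some named by this rule are not reported here. Tgfb1, Smad6, Smad9, Lrrc32, Ltbp2, Ltbp4, Thbs1, Bmp1, Bambi, Acvr1, Smurf1, Sin3a, Runx3, Id1, Id3 and Pmepa1 were added after their values were seen. So were Ldlrad4, Klf10, Itgae and Junb. Older symbols were matched through RefSeq synonyms. Alternatives were other scalings (total counts, DESeq2 1.42.0 size factors, 13 T cell genes), a prior count of 5, limits of 1.5-fold and 4-fold, no minimum or 5 CPM, and longest transcript length.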

Additional observations from a re-analysis of the deposited data

How the results depend on the processing

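Over the other scalings and a prior count of 5, the log2 ratio of 9 of the 10 genes kept its sign, and Smad4 did not. Scaling by DESeq2 size factors or total counts, or the prior count of 5, left all 10 within their counting intervals. Scaling by 13 T cell genes moved the median of all genes to 0.19 and the 10 genes with it, to 0.19 for Tgfbr1, -0.36 for Tgfbr2, -0.019 for Smad2, -0.23 for Smad3, 0.18 for Smad4, -0.54 for Smad7, -0.57 for Ski, -0.85 for Skil and 0.51 for Tgif1. The number of the 10 genes called lower was 0 under scaling by total counts and 0 under scaling by T cell genes. It was 3 at 1.5-fold, against 8.42% of all genes, and at 4-fold 0 were higher and 0 lower. Of the 109 wider pathway genes, 17 were higher and 16 lower at 1.5-fold, against 17.7% higher and 8.42% lower among all genes. Under scaling by T cell genes 14 wider pathway genes were higher and 3 lower, against 1675 and 314 of all 11742 genes compared. With a minimum of 5 CPM 8 were higher and 2 lower, against 738 and 147 of all 9953 genes compared. With longest transcript length in place of exon length, the rank among the 10 genes became 7 for Tgfbr1 in both libraries, 8 in DKO and 9 in WT for Smad2, 6 in WT for Skil, and 6 in DKO and 8 in WT for Tgif1. Over all genes, the called genes that were higher made up 76.3% in the main scaling, 78.8% under total counts and 84.2% under scaling by T cell genes. Depth limits Tgfbr3 and genes under 5 CPM most, where 1 library of each genotype gives fewest counts. No paired analysis was possible because each genotype has 1 library.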

Other observations

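Among pathway genes under 1 CPM in both libraries, several had counts in 1 library only, and each fold here is the limit nearest 1 of the exact 95% interval. Bmp2 had 16 counts in DKO and 0 in WT, at least 4.23-fold higher. Dach1, which encodes a Ski-related DNA-binding protein, had 15 counts in DKO and 0 in WT, at least 3.94-fold higher, and Ltbp1 had 11 counts in DKO and 0 in WT, at least 2.75-fold higher. Rgma, a BMP co-receptor gene, had 0 counts in DKO and 16 in WT, at least 3.52-fold lower, and Gdf15 had 0 in DKO and 7 in WT, at least 1.31-fold lower. These genes were chosen after their values were seen, and no replicate bears on them.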
